A study of Mus musculus with 10 samples.

Results

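The 40 genes described here encode enzymes of glycolysis, the subunits of the hypoxia-inducible factors (HIFs), the proteins that control HIF, and genes known to be induced by low oxygen. They were chosen by name from a fixed list, and all 40 were found among the 21612 genes of the deposited table of normalised counts. By role they were sorted into 8 sets, namely glucose entry and hexokinases (3 genes), upper glycolysis (7), lower glycolysis (6), lactate and pyruvate fate (4), enzymes that set fructose 2,6-bisphosphate (2), HIF subunits (4), oxygen sensing and HIF control (4) and hypoxia-induced genes (10). Tests were run on the 15211 genes with a normalised count of 10 or more in at least 2 libraries, and all 40 were among them. Aldoc, Eno2 and Ldhb passed this filter only through the E13.5 libraries, where they are high. Slc2a3 passed it through the E13.5 libraries and also through the MS-275 libraries (36.7 and 308).

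Glycolysis splits glucose into pyruvate, and brain endothelial cells (ECs) are known to draw much of their ATP from it. Several of its steps can be run by more than 1 isozyme, each encoded by a gene of its own and used to a different degree from tissue to tissue. HIF is a pair of an oxygen-controlled alpha subunit (HIF-1 alpha from Hif1a or HIF-2 alpha from Epas1) and a beta subunit (from Arnt or Arnt2). With oxygen at hand, prolyl hydroxylases encoded by Egln genes mark the alpha subunit for destruction through the von Hippel-Lindau protein (Vhl), and an asparagine hydroxylase (Hif1an) blocks its activity. When oxygen is short the pair persists, binds the core motif and raises glycolytic enzymes and genes such as Bnip3, Ndrg1 and Egln3 itself. Much of this control acts on the protein, so that mRNA levels of the subunits do not show HIF activity.

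RNA-seq gave 10 libraries, all labelled primary cortical ECs from WT mice, which the study's methods place on a C57BL/6J background. The libraries fall into 4 groups, E13.5 (embryonic, untreated, n = 3), adult control (n = 3), adult ECs given Wnt3a (a secreted Wnt ligand that acts through β-catenin, 200 nM by the labels, while the methods give mass per volume, so that the unit is uncertain, n = 2) and adult ECs given MS-275 (an inhibitor of class I histone deacetylases, 10 µM by the labels, n = 2). The adults were young males by the methods. Cortices were pooled without pia or meninges and the ECs were grown on a coated surface in EC medium before RNA was taken, so that every library reports cells in culture at an oxygen level that the sources used here do not state. The labels call the samples biological replicates, and whether a treated library shares a culture with a control library is not given.

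The HIF core motif was searched in the promoters (250 bases before to 50 bases after each RefSeq start, GRCm38.p6) as the letters ACGTG or GCGTG on either strand, so that a CACGTG counts on both strands. Of the 40 genes, 36 had a promoter in the table used, with 52 starts in all, and Slc2a3, Bnip3l, Ndrg1 and Epas1 had none. At least 1 match stood in 39 of the 52 promoters (75%), beside 43.8% of all 32851 promoters, and at least 2 matches in 26 (50%), beside 20.6%. Ldha, lactate dehydrogenase A, held the most, with 7 matches at its start at chr7:46845554-46845853. The 4 promoters below are examples that hold a match. Each of their genes was called in at least 1 comparison and is given library by library there. Other genes meet the same rule, among them Arnt2, Gpi1 and Hif1an, whose promoters held no match. They belong to Hk2 (chr6:82774405-82774704), Bnip3 (chr7:138909457-138909756), Pfkp (chr13:6648722-6649021) and Egln3 (chr12:54203825-54204124), all on the minus strand. They read 5′ to 3′ along the gene, with every match to the motif, on either strand, in capitals.
Hk2: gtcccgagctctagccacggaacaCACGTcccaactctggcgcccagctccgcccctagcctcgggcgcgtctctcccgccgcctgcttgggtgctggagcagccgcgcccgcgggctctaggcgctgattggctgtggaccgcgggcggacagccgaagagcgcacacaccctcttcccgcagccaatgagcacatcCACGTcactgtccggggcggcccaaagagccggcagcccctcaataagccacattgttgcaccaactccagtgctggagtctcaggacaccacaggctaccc
Bnip3: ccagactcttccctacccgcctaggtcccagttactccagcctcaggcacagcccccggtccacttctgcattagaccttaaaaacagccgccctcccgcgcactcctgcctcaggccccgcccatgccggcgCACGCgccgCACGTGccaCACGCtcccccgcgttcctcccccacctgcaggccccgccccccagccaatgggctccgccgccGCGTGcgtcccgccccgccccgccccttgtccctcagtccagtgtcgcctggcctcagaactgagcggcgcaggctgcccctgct
Pfkp: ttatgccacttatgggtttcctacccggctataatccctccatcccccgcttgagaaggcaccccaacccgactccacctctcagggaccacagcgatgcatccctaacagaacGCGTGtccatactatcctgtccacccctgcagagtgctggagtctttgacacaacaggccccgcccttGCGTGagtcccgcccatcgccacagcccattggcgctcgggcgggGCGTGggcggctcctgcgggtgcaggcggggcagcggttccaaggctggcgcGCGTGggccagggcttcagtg
Egln3: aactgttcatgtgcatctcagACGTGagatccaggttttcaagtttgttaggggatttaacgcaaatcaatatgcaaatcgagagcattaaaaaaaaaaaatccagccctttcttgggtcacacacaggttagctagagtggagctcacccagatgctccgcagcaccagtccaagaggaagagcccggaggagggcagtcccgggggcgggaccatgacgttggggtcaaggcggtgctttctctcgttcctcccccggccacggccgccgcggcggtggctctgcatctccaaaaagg
Hk2 held 2 matches, Bnip3 held 5, Pfkp held 4 and Egln3 held 1, which lies near the upstream end of the window. The promoters of Arnt2, Eno2, Gpi1, Hif1an, Tpi1 and Vhl held none in these windows. A match is a run of letters and no evidence of binding.

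The libraries held 21171509 to 31810932 reads on genes. The label of the E13.5 libraries goes against their markers. The 16 endothelial markers summed to between 1918 and 2647 normalised counts there, beside 259062 to 342432 in adult control, 201686 to 255615 with Wnt3a and 28014 to 38933 with MS-275. Markers of neurons and neural progenitors (14 genes) summed to between 34747 and 43242 at E13.5 and to between 1838 and 4847 in adult control, where 5 of them had no read and Nes, which endothelial cells can also express, held nearly all of the sum (1825 to 4834). Adult control 3 and Wnt3a 2, of different groups, lay as close to each other (median absolute log2 difference over all tested genes 0.111) as adult control 1 lay to adult control 2 (0.105). Their differences still exceeded counting noise, and each was counted as a separate sample.

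Taken over all 40 genes, the set made up 0.818% to 1.98% of a library's normalised counts. It was highest in Wnt3a 1 (1.98%) and MS-275 1 (1.93%). It stood at 1.42% in adult control 1, 1.49% in adult control 2 and 0.949% in adult control 3, and at 0.818% to 0.951% in the E13.5 libraries. Wnt3a 2 (0.95%) and MS-275 2 (1.08%) were closer to adult control 3 than to the other library of their own group. Per kilobase of merged exon, Gapdh (glyceraldehyde-3-phosphate dehydrogenase) had the highest mean of the 40 genes in every group, for instance 14808 ± 1868 at E13.5 and 33202 ± 10232 in adult control (SD, n = 3 each). In adult control it was followed per kilobase by Pkm, Pgk1 and Aldoa, and at E13.5 by Eno1, Pgam1 and Aldoa. These orders of neighbours lie within the spread of the libraries.

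**Figure D1:**
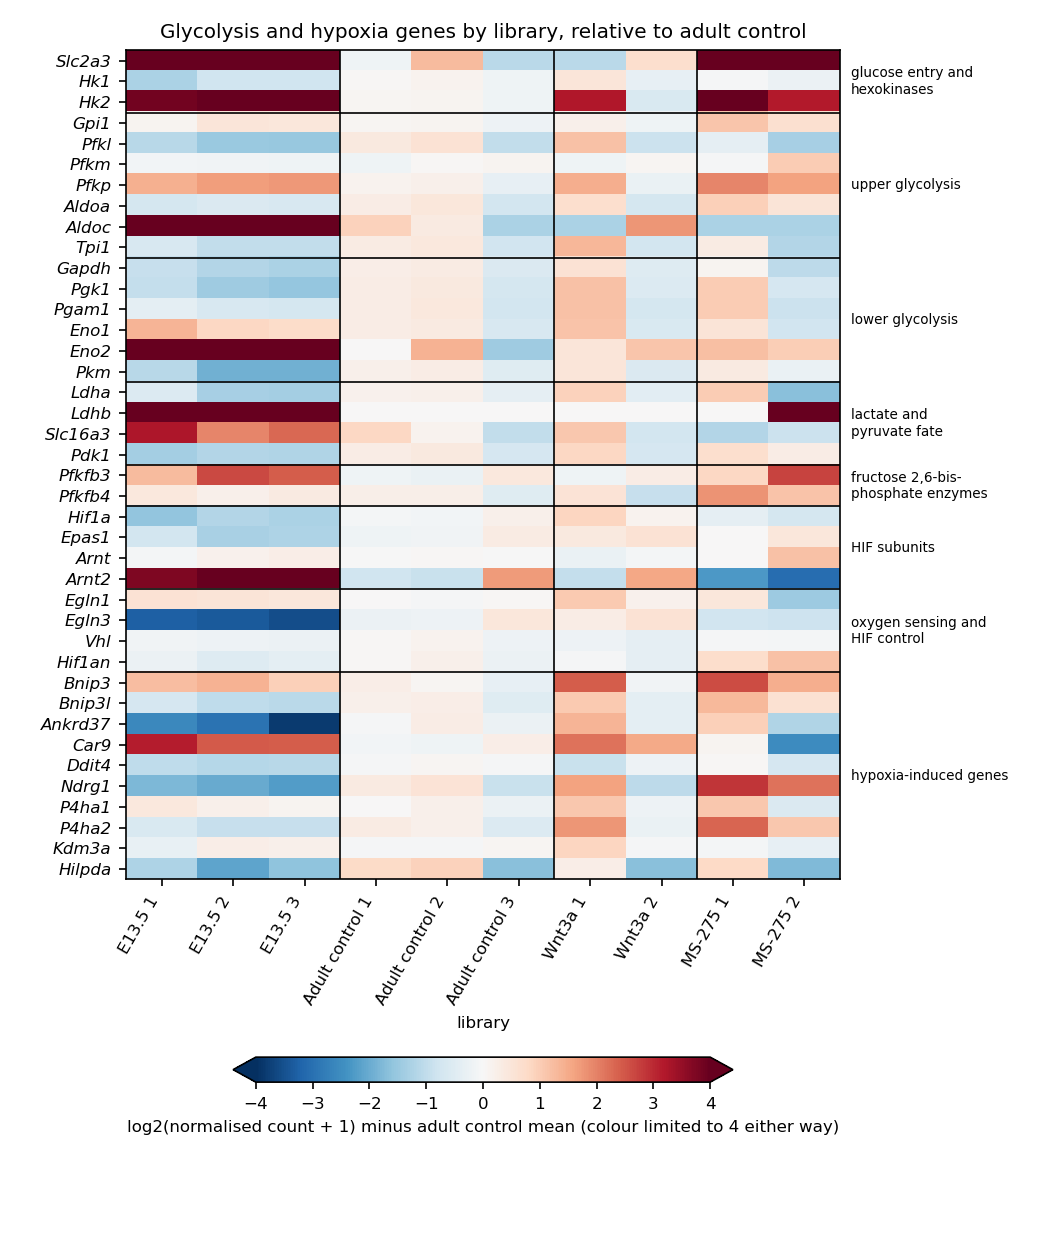
Each row is 1 of the 40 genes, grouped by role, and each column is a library. Colour gives log2(normalised count + 1) minus the mean of the 3 adult control libraries, limited to 4 in either direction, so that the strong red of Slc2a3, Aldoc, Eno2 and Ldhb at E13.5 stands for more than 16-fold. Wnt3a 1 and MS-275 1 are red for most glycolytic enzymes, and Wnt3a 2 and adult control 3 are pale blue for them.

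The first comparison, adult control against E13.5, bears on the study's question of what separates ECs that build the barrier from ECs that keep it. Levels are normalised counts, and differences are on the scale of log2(normalised count + 1). A gene was called when limma, fitted over all 10 libraries, gave a Benjamini-Hochberg adjusted p under 0.05 and an absolute log2 difference above 0.2. Where called genes are said not to overlap between groups, that describes them and adds no support to the call. The share of all tested genes so separated was not counted. In adult control 10 of the 40 genes were higher, beside 17.9% of all tested genes, and 10 were lower, beside 31.2%. The 10 include Aldoc, Eno2 and Ldhb, which had to be lower once they passed the filter. The median log2 difference of the 40 genes was 0.29, and that of all tested genes was -0.20. Over all genes 2722 were called higher and 4740 lower, which turned to 4488 and 3571 under quantile normalisation. Among the 40 genes the numbers under that normalisation were again 10 and 10, but Gapdh, Slc16a3 and Car9 lost their calls and other genes took their place. The mean of a bulk library cannot tell fewer cells of a type from less RNA per cell. Neural, astrocyte and mural markers were far higher in the E13.5 libraries, and their part in these differences was not tested.

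The 4 largest differences were in 3 isozyme genes and a glucose transporter that the adult control libraries barely used. Ldhb encodes the lactate dehydrogenase subunit typical of heart and neurons. It stood at 4140, 3780 and 3196 in the 3 E13.5 libraries and had no read in adult control or Wnt3a, at least 3890-fold lower in adult control against a floor of 3 reads over the group. Aldoc, the aldolase of astrocytes and neurons, stood at 2293, 2448 and 2260 at E13.5 and at 3.47, 2.03 and 0 in adult control (6 reads in all). Eno2, neuron-specific enolase, stood at 610, 1196 and 1218 at E13.5 and at 1.73, 6.10 and 0 in adult control (8 reads in all). In each of these genes the groups lie orders of magnitude apart. Slc2a3, which encodes the neuronal glucose transporter GLUT3, stood at 2484, 2789 and 2746 at E13.5 and at 0.87, 4.07 and 0 in adult control (5 reads in all). Aldoc, Eno2 and Ldhb entered the test only through the E13.5 libraries, so that they had to differ and no p is given for them. Slc2a3, which the MS-275 libraries also carried past the filter, had a log2 difference of -10.30 ± 0.88 (SE, limma adjusted p = 1.5e-05). All 4 genes are known as neural or glial forms. The astrocyte markers (7 genes) summed to between 8624 and 10112 at E13.5 and to between 4.1 and 85.8 in adult control.

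Among the hexokinases, which trap glucose as its phosphate, Hk1 rose and Hk2 fell from E13.5 to adult control. Hk2, the inducible form, stood at 1789, 3105 and 3221 at E13.5 and at 129, 134 and 108 in adult control, a log2 difference of -4.39 ± 0.85 (SE, adjusted p = 0.0025). Hk1, the form found in most tissues, stood at 5668, 7786 and 7878 at E13.5 and at 13844, 15024 and 11941 in adult control (0.95 ± 0.23, adjusted p = 0.0089). Of the summed hexokinase counts per kilobase, Hk2 therefore held 28.1% ± 2.82 at E13.5 and 0.945% ± 0.021 in adult control (SD, n = 3 each). No library of one group reached the other group's range.

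At phosphofructokinase, the committed step of upper glycolysis, Pfkp fell and neither of its relatives was called higher. Pfkp, the platelet form, stood at 4464, 5274 and 5467 at E13.5 and at 1816, 1891 and 1303 in adult control (-1.61 ± 0.38, adjusted p = 0.0073). Pfkl, the liver form, stood at 1632, 1246 and 1227 at E13.5 and at 4581, 5250 and 1783 in adult control, which did not pass the test (1.37 ± 0.57, adjusted p = 0.076) and did so without adult control 3 (adjusted p = 0.023). Per kilobase, Pfkp made up 51.3% ± 4.35 of the 3 phosphofructokinase genes at E13.5 and 17.3% ± 0.988 in adult control. The exons of Pfkp overlap those of Pitrm1, and the sources used here do not say if counting took strand into account, so that some of its reads may belong to the neighbour. Gpi1, Pfkm, Aldoa and Tpi1 had log2 differences between -0.34 and 0.87 and did not pass.

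In lower glycolysis, which yields ATP, Pkm and Gapdh rose. Pkm, pyruvate kinase of most tissues, stood at 34091, 19130 and 19463 at E13.5 and at 83314, 89049 and 52599 in adult control (1.65 ± 0.38, adjusted p = 0.0064). Gapdh, to which the study scaled its quantitative PCR, stood at 31298, 26248 and 24682 at E13.5 and at 70622, 74072 and 39679 in adult control (1.12 ± 0.41, adjusted p = 0.048). The groups did not overlap in either gene. The call of Gapdh was lost without any E13.5 library and without adult control 1 or 2 (highest adjusted p 0.14), and under a pseudocount of 0.5, equal totals and quantile normalisation. Eno1, enolase of most tissues, had a log2 difference of -0.97 ± 0.51 that did not pass (adjusted p = 0.15), and its near-identical copy Eno1b held 9238 ± 2313 normalised counts at E13.5 and 8530 ± 3170 in adult control (SD, n = 3 each). Reads of the 2 genes may have been split between them. Gapdh, Pgk1, Pgam1, Ldha and Aldoa each have 2 named pseudogenes in the annotation, so that their levels carry the same doubt.

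Pdk1, Slc16a3 and Pfkfb3 stand around these steps. Pdk1, a kinase that inhibits pyruvate dehydrogenase, stood at 544, 620 and 603 at E13.5 and at 1705, 1830 and 881 in adult control (1.25 ± 0.40, adjusted p = 0.028). Slc16a3, the lactate exporter MCT4, was low throughout and stood at 165, 66.8 and 85.9 at E13.5 and at 30.4, 18.3 and 7.89 in adult control (-2.50 ± 0.64, adjusted p = 0.011), a call lost under quantile normalisation. Pfkfb3, whose product raises fructose 2,6-bisphosphate and with it phosphofructokinase activity, stood at 943, 2415 and 2111 at E13.5 and at 346, 326 and 521 in adult control (-2.11 ± 0.51, adjusted p = 0.0080). Within this neighbourhood 1 gene rose and 2 fell, beside 17.9% and 31.2% of all tested genes. The call of Pdk1 was lost without any E13.5 library and without adult control 1 or 2 (highest adjusted p 0.094).

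**Figure D2:**
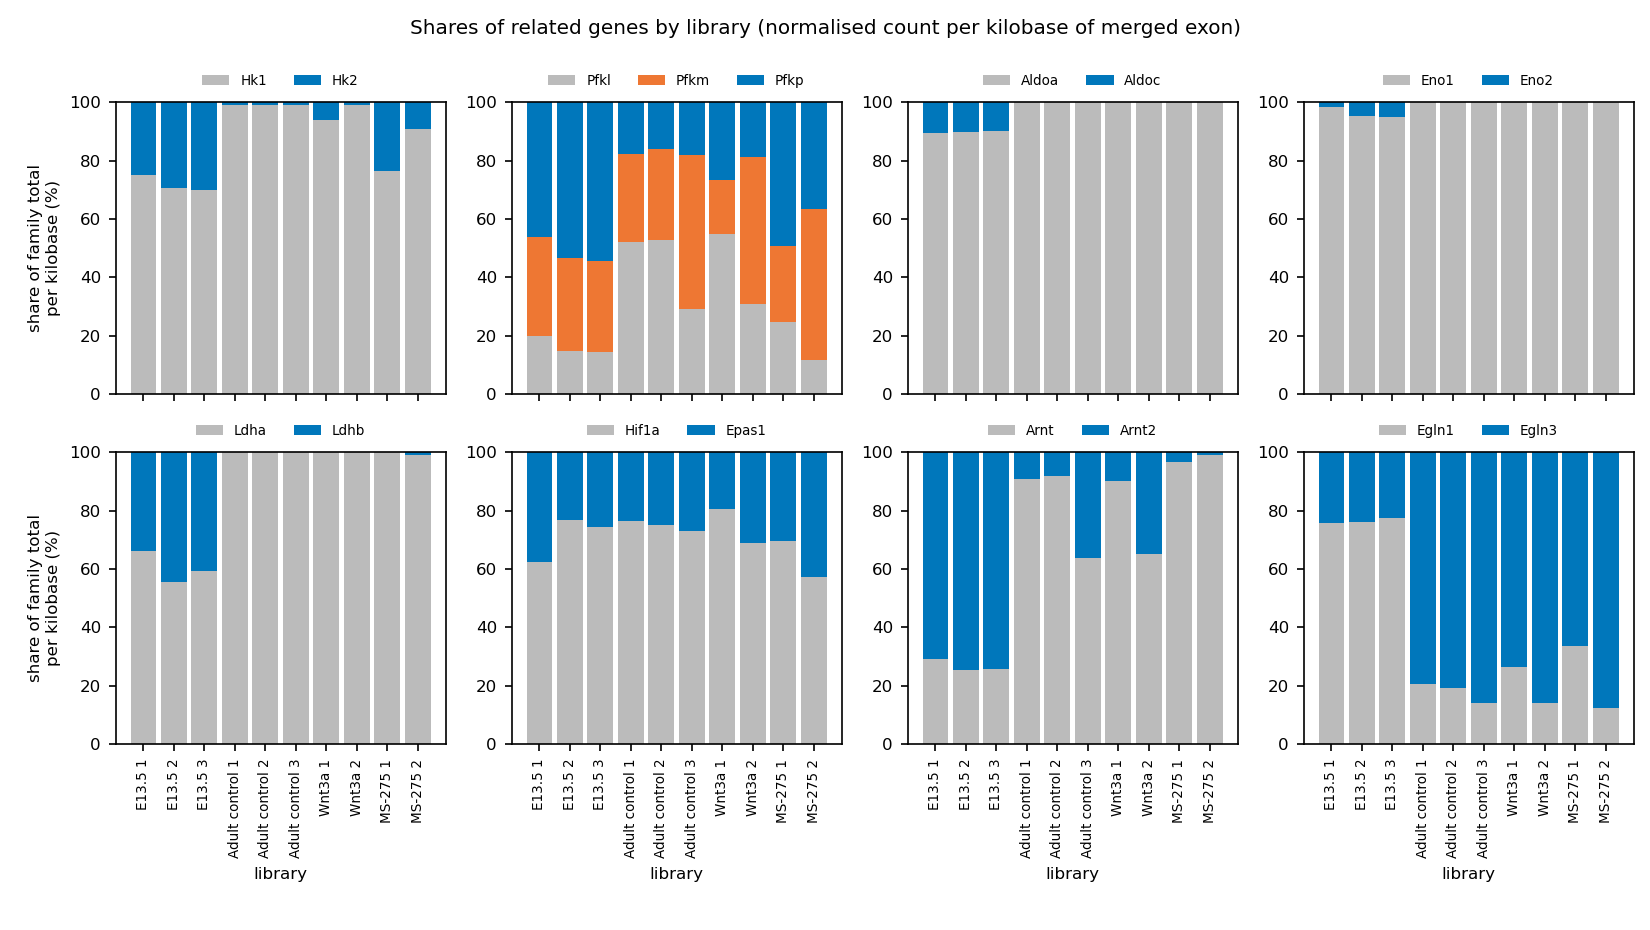
Bars show, for each library, the share in percent of each gene in the total of its family, from normalised counts per kilobase of merged exon. Hk2, Pfkp, Aldoc, Eno2, Ldhb and Arnt2 hold larger shares in the 3 E13.5 libraries than in adult control, and Egln3 a smaller one, while Hif1a holds 57.4% to 80.4% of its pair in every library. Hk2 and Pfkp are again larger with MS-275.

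HIF subunits differed by partner. Hif1a stood at 5588, 7479 and 6993 at E13.5 and at 15900, 15454 and 19054 in adult control (1.33 ± 0.22, adjusted p = 0.0010). Epas1 stood at 3419, 2295 and 2422 at E13.5 and at 4991, 5154 and 7125 in adult control (1.09 ± 0.22, adjusted p = 0.0029). Both alpha subunits rose with no overlap of the groups, and Hif1a held 71.2% ± 7.75 of their counts per kilobase at E13.5 and 74.9% ± 1.68 in adult control (SD, n = 3 each). The exons of Hif1a overlap those of Gm49321. Arnt, the general beta subunit, stood at 1517, 1796 and 1936 at E13.5 and at 1583, 1658 and 1592 in adult control (-0.11 ± 0.26, adjusted p = 0.75, 95% confidence interval -0.70 to 0.48). Arnt2, its relative best known from neurons, fell from 5186, 7435 and 7897 to 226, 209 and 1275 (-4.09 ± 0.79, adjusted p = 0.0024). Of the 2 beta subunits, Arnt2 held 73.1% ± 2.12 per kilobase at E13.5 and 17.8% ± 15.8 in adult control, and most of the latter spread came from adult control 3 (36.1%).

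Among the oxygen sensors only Egln3 passed the test. Egln3, the prolyl hydroxylase known as a HIF target, stood at 502, 472 and 417 at E13.5 and at 4093, 4244 and 6608 in adult control, a log2 difference of 3.39 ± 0.20 (adjusted p = 1.7e-06) that held without each library in turn. Egln1, the main prolyl hydroxylase, stood at 2127, 2036 and 1956 at E13.5 and at 1444, 1363 and 1465 in adult control (-0.52 ± 0.42, adjusted p = 0.34), without overlap of the groups. Egln3 therefore held 23.4% ± 0.968 of their counts per kilobase at E13.5 and 82.0% ± 3.47 in adult control. The SE of Egln1 comes from the spread within all 4 groups of the fit. In the treated libraries Egln1 stood at 2913 and 1616 with Wnt3a and at 1934 and 524 with MS-275. Vhl stood at 695, 663 and 652 at E13.5 and at 798, 854 and 672 in adult control (0.20 ± 0.16, adjusted p = 0.31). Hif1an stood at 1255, 1028 and 1122 at E13.5 and at 1502, 1690 and 1238 in adult control (0.37 ± 0.19, adjusted p = 0.14). Neither Vhl nor Hif1an was separated between the groups.

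Of the 10 hypoxia-induced genes 3 rose, beside 17.9% of all tested genes, 1 fell, beside 31.2%, and 6 did not pass. Ankrd37, an ankyrin repeat gene known as a HIF target, stood at 23.8, 18.2 and 9.54 at E13.5 and at 143, 180 and 124 in adult control (3.11 ± 0.66, adjusted p = 0.0041). Its exons overlap Lrp2bp and Ufsp2. Ndrg1, a stress-response gene, stood at 688, 582 and 506 at E13.5 and at 3013, 3466 and 1276 in adult control (2.01 ± 0.63, adjusted p = 0.026). That call was lost without any E13.5 library and without adult control 1 or 2 (highest adjusted p 0.086). Ddit4, an inhibitor of mTORC1, also rose (1.08 ± 0.23, adjusted p = 0.0036). Car9, carbonic anhydrase 9 and a marker of hypoxic tissue, was low throughout, at 49.3, 30.3 and 29.6 at E13.5 and at 4.34, 4.07 and 5.92 in adult control (-2.67 ± 0.63, adjusted p = 0.0072), and its difference turned to 0.49 under quantile normalisation. The hypoxia-induced genes thus did not move one way between the groups.

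Lists of neighbouring genes were counted in the same way, to be read beside the 17.9% of all tested genes that were higher and the 31.2% that were lower. Of 38 other HIF pathway and hypoxia-induced genes, 6 rose and 22 fell from E13.5 to adult control, with a median log2 difference of -1.53. Cxcr4, a chemokine receptor, fell from a mean of 225 at E13.5 to no read in adult control. Lox (a collagen cross-linking enzyme) fell from a mean of 1255 to 0.678, and Pgf (placental growth factor, a ligand of a vascular growth factor receptor) rose by 6.28. In the list around pyruvate entry to mitochondria 7 of 14 genes fell and none rose, with Pdk4 at -10.68, Pdk2 at -1.79 and Pdpr at -1.32. That list mixes carrier subunits with kinases of the Pdk family, so that its counts give no direction for pyruvate entry. Other glycolysis and glucose or lactate handling genes split evenly, 3 rising and 3 falling of 17 tested, led by Galm (2.67), Slc16a7 (-5.15) and Hk3, which fell from a mean of 25.0 to no read. Cxcr4, Lox, Pdk4, Slc16a7 and Hk3 passed the filter through the E13.5 libraries, so that they had to be lower in adult control. The counts of falling genes in these lists include such genes. In the pentose phosphate pathway 1 of 8 genes rose (G6pdx, 0.65). Mural cell and fibroblast markers (14 genes) summed to between 36149 and 65154 at E13.5 and to between 240 and 360 in adult control, and their part was not tested.

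The second comparison set MS-275 against adult control and bears on the study's question of what class I histone deacetylases hold back in adult ECs. With MS-275 10 of the 40 genes were higher, beside 21.8% of all tested genes, and 2 were lower, beside 17.4%. The median log2 difference was 0.13 over the 40 genes and 0.15 over all tested genes. For the 40 genes it was -0.24 without MS-275 1, 0.60 without MS-275 2 and -0.17 without adult control 3. MS-275 1 lay above the highest control in 21 of the 40 genes, beside 40.3% of all tested genes, and below the lowest in 5, beside 31%. MS-275 2 lay above in 16, beside 42.4%, and below in 17, beside 33.1%. In share of genes called, the set was thus close to the background upward and below it downward. The 16 endothelial markers fell in 14 genes in the same libraries (summed levels above), mural cell and fibroblast markers summed to between 1057 and 1262, and alpha-globin Hba-a1 rose from no read to a mean of 247.7. Whether these shifts have a part in the changes below was not tested.

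Of glucose entry and hexokinase genes 2 of 3 rose with MS-275, and of upper glycolysis genes 2 of 7, beside 21.8% of all tested genes. Hk1 (-0.14), Pfkl (-0.85), Pfkm, Aldoa, Aldoc and Tpi1 did not pass. Hk2 stood at 3825 and 1110 with MS-275, beside 129, 134 and 108 in adult control (4.05 ± 0.95, adjusted p = 0.010). Slc2a3 stood at 36.7 and 308, beside 0.87, 4.07 and 0 in adult control, still a low level (5.67 ± 0.98, adjusted p = 0.0024). Pfkp stood at 6431 and 5054, beside 1816, 1891 and 1303 (1.79 ± 0.43, adjusted p = 0.011). Both MS-275 libraries exceeded every control library in these genes. Taken singly, MS-275 1 and MS-275 2 did so in 40.3% and 42.4% of all tested genes. Gpi1, which turns glucose 6-phosphate into fructose 6-phosphate, stood at 22811 and 16553, beside 11276, 11511 and 9344 in adult control (0.87 ± 0.22, adjusted p = 0.014). Hk2 held 23.5% and 9.08% of hexokinase counts per kilobase in the 2 libraries and Pfkp 49.3% and 36.7% of phosphofructokinase counts, beside 0.926% to 0.968% and 16.2% to 18.1% in adult control. Without MS-275 1 the calls of Hk2, Pfkp and Gpi1 were lost (adjusted p 0.067 to 0.082), and that of Slc2a3 was kept without any library.

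The enzymes of fructose 2,6-bisphosphate rose as well. Pfkfb3 stood at 695 and 2550 with MS-275, beside 346, 326 and 521 in adult control (1.77 ± 0.57, adjusted p = 0.037). Pfkfb4, its relative known to respond to hypoxia, stood at 513 and 321, beside 173, 173 and 104 (1.47 ± 0.47, adjusted p = 0.035). The 2 MS-275 libraries were in opposite order for the 2 genes. Pfkfb3 lost its call without MS-275 2 (adjusted p = 0.31) and without adult control 1 or 2, and Pfkfb4 lost it without each library in turn (adjusted p 0.057 to 0.18).

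No gene of lower glycolysis or of lactate and pyruvate fate was called, and in Gapdh and Ldha the 2 MS-275 libraries were far apart. Gapdh stood at 63401 and 28356, on either side of the lowest control (39679), with a log2 difference of -0.48 ± 0.46 (adjusted p = 0.43, 95% confidence interval -1.52 to 0.56). Ldha, chosen for mention after its values were seen, stood at 40098 in MS-275 1 and at 6207 in MS-275 2, the highest and the lowest of all 10 libraries. Pkm stood at 92975 and 61236 (0.05 ± 0.43, adjusted p = 0.96). Its 95% confidence interval ran from -0.92 to 1.02, so that the data do not show its level to be unaltered. Ldhb had reads in MS-275 2 alone of the 7 adult libraries, at a level of 28.4.

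Of the HIF subunits Arnt2 fell and the others did not pass. Arnt2 stood at 79.3 and 47.0 with MS-275, beside 226, 209 and 1275 in adult control (-2.66 ± 0.88, adjusted p = 0.041), and it missed the threshold when adult control 3 (adjusted p = 0.067) or either MS-275 library was left out. Hif1a stood at 12920 and 10311, below all 3 controls (-0.54 ± 0.25, adjusted p = 0.12). Epas1 stood at 5716 and 7763 (0.23 ± 0.24, adjusted p = 0.48). Arnt stood at 1643 and 3598 (0.59 ± 0.29, adjusted p = 0.14). Hif1a and Arnt2 did not overlap with adult control, and Arnt2 alone passed the test.

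The HIF-controlling hydroxylases moved in different directions. Egln3 stood at 2830 and 2739 with MS-275, beside 4093, 4244 and 6608 in adult control (-0.80 ± 0.22, adjusted p = 0.020). Hif1an stood at 2366 and 3335, beside 1502, 1690 and 1238 (0.94 ± 0.21, adjusted p = 0.0086). Egln3 lost its call without either MS-275 library (adjusted p 0.064 and 0.096), and Hif1an without MS-275 2 (adjusted p = 0.071). Egln1 stood at 1934 and 524 (-0.50 ± 0.47, adjusted p = 0.43). Vhl stood at 748 and 724, within the control range (-0.07 ± 0.17, adjusted p = 0.79, 95% confidence interval -0.46 to 0.33).

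Of the 10 hypoxia-induced genes Ndrg1, Bnip3 and P4ha2 rose, beside 21.8% of all tested genes, and 7 did not pass. Ndrg1 (chr15:66929318-66969640, minus strand, GRCm38) stood at 17178 and 10747 with MS-275, beside 3013, 3466 and 1276 in adult control (2.52 ± 0.70, adjusted p = 0.021). Bnip3, a mitophagy receptor, stood at 2402 and 1075, beside 473, 416 and 316 (2.02 ± 0.65, adjusted p = 0.036). P4ha2, a subunit of collagen prolyl hydroxylase, rose by 1.70 ± 0.58 (adjusted p = 0.046). In all 3 genes both MS-275 libraries lay above every control, beside 40.3% (MS-275 1) and 42.4% (MS-275 2) of all tested genes for each library alone. Bnip3 and P4ha2 lost their calls without each library in turn (highest adjusted p 0.21 and 0.28), and Ndrg1 lost its call without either MS-275 library (adjusted p 0.12 and 0.069). Egln3, itself known as hypoxia-induced, fell in the same libraries, and Car9 stood at 5.12 and 0.

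The calls with MS-275 rested on few libraries. Of the 10 genes called higher, 1 (Slc2a3) kept its call without each library in turn, and neither of the 2 called lower did. Of these 10, 4 kept the call without MS-275 2, 3 without MS-275 1 (Slc2a3, Pfkfb3 and Hif1an), 6 without adult control 1 or 2 and 7 without adult control 3. Without MS-275 1, 6 genes outside the called ones came past the threshold (Pfkm, Ldha, Ldhb, Arnt, Egln1 and Car9). edgeR and DESeq2 on the recovered reads kept all the calls.

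**Figure D3:**
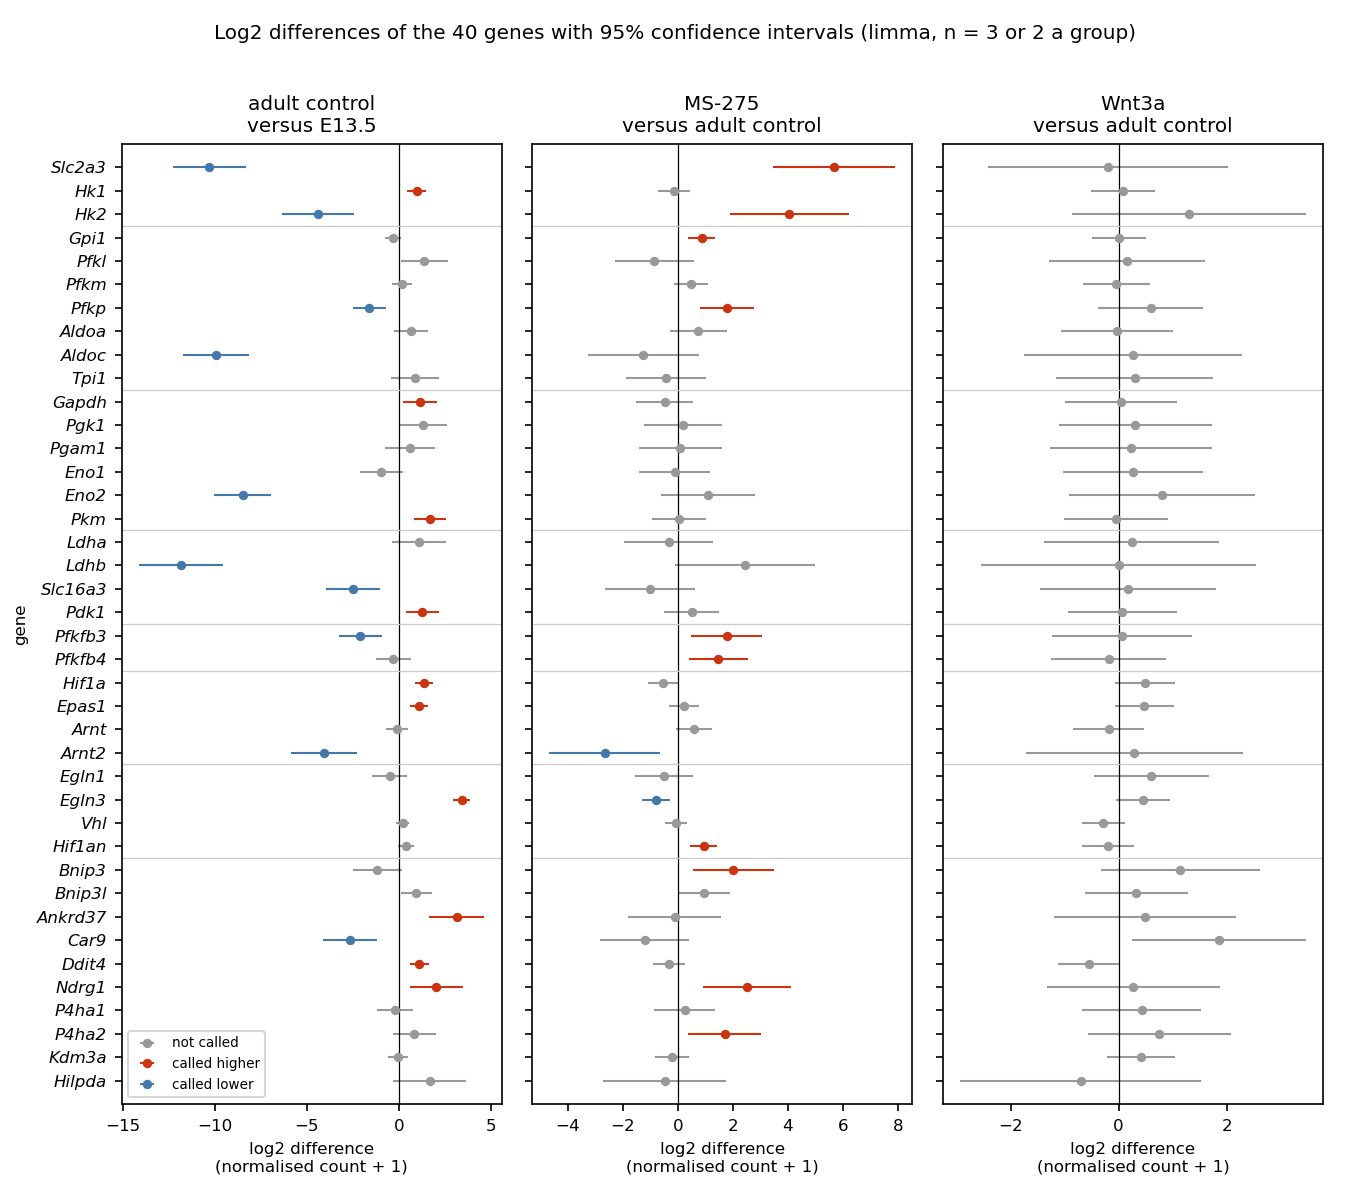
Points give the log2 difference of log2(normalised count + 1) for each of the 40 genes in the 3 comparisons, and lines its 95% confidence interval from limma. Genes called higher are red and genes called lower are blue, 10 and 10 in adult control against E13.5, 10 and 2 with MS-275 and 0 with Wnt3a. The horizontal axes differ in range between the panels.

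The lists around the set were counted with MS-275 too, beside 21.8% of all tested genes higher and 17.4% lower. Of 38 other HIF pathway and hypoxia-induced genes 14 rose and 3 fell, with a median log2 difference of 1.13. Car12 (a carbonic anhydrase, 5.92) and Sdc4 (a heparan sulfate proteoglycan, 3.38) rose. In the list around pyruvate entry to mitochondria 6 of 14 genes rose and none fell. Among them were Mpc1 (1.71) and Mpc2 (1.17), the subunits of the pyruvate carrier, and Pdk2 (1.36). As that list mixes carrier and kinase genes, its counts give no direction for pyruvate entry. Other glycolysis and glucose or lactate handling genes rose in 5 and fell in 2 of 17 tested, with Pfkfb2 at 1.92, Bpgm at 1.86 and Galm at -3.23. None of the 8 pentose phosphate genes was called.

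The third comparison, Wnt3a against adult control, asks what the ligand changes in adult cells. None of the 40 genes was called higher or lower with Wnt3a, beside 0% of all tested genes in each direction. Without adjustment 1 of the 40 (Car9) had a limma p under 0.05, and 916 of all tested genes did. edgeR gave 3 and 925 and DESeq2 3 and 1166, with no call after adjustment. The median log2 difference of the 40 genes was 0.25, and that of all tested genes was 0.00. It was -0.30 without Wnt3a 1, 0.74 without Wnt3a 2 and -0.02 without adult control 3 for the 40 genes. Car9 stood at 25.0 and 15.5 with Wnt3a, beside 4.34, 4.07 and 5.92 (1.86 ± 0.71, adjusted p = 0.75), at levels of few reads.

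The 2 Wnt3a libraries were unlike each other in these genes. Wnt3a 1 lay above the highest control in 27 of the 40 genes, beside 27.1% of all tested genes, and below the lowest in 4, beside 24.5%. Wnt3a 2 lay above the highest control in 5, beside 22.1%, and below the lowest in 12, beside 22.2%. Hk2 stood at 1143 in Wnt3a 1 and at 81.2 in Wnt3a 2, the first well above and the second below the controls (108 to 134). Bnip3 stood at 2112 and 362, Ndrg1 at 7200 and 1144, and Pfkp at 4540 and 1361. Gapdh stood at 89083 and 41476 and Pkm at 101856 and 48918, where Wnt3a 1 was the highest of all 10 libraries for each. In every gene named here Wnt3a 2 was close to adult control 3, the library it resembled over all genes.

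Most HIF subunits and sensors differed less between the Wnt3a libraries, Arnt2 being the exception. Hif1a stood at 30098 and 18364, beside 15900, 15454 and 19054 in adult control (0.49 ± 0.25, adjusted p = 0.75, 95% confidence interval -0.07 to 1.05). Epas1 stood at 7428 and 8440, above all controls (0.48 ± 0.24, adjusted p = 0.75). Arnt stood at 1327 and 1510 (-0.19 ± 0.29, adjusted p = 0.90) and Arnt2 at 201 and 1148 (0.29 ± 0.88, adjusted p = 0.97). Adult control held the same kind of split in Arnt2, at 226 and 209 against 1275. Egln3 stood at 6033 and 7313 (0.45 ± 0.22, adjusted p = 0.75) and Egln1 at 2913 and 1616 (0.61 ± 0.47, adjusted p = 0.77). Vhl stood at 668 and 598 (-0.29 ± 0.17, adjusted p = 0.75) and Hif1an at 1423 and 1151 (-0.20 ± 0.21, adjusted p = 0.84). No list around the set held a called gene with Wnt3a. The 3 with the smallest p among other HIF pathway genes were Edn1 (2.79), Hif3a (no read with Wnt3a, mean 6.70 in adult control) and Plod2 (1.41), with an adjusted p of 0.75 each. Without adult control 3, 412 genes of the whole table were called higher and 167 lower, and without Wnt3a 2, 33 and 41, none of them among the 40 (smallest adjusted p of the set 0.055 and 0.068).

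**Figure D4:**
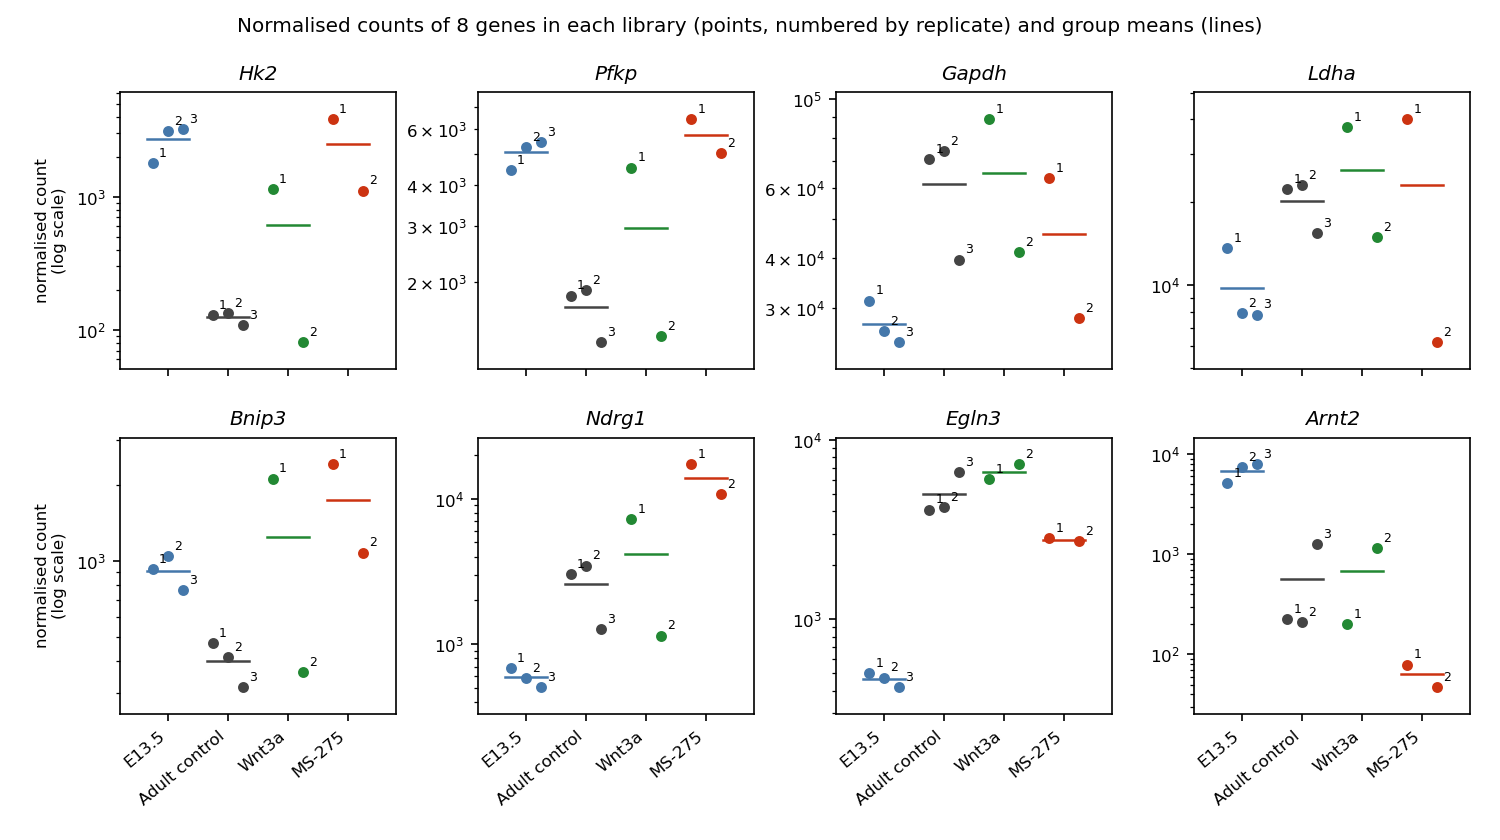
Normalised counts of 8 genes on logarithmic axes, with a point for each library, numbered by replicate, and a line for the group mean. Hk2 is low in the controls (108 to 134) and in Wnt3a 2 (81.2), and is above 1000 in Wnt3a 1, both MS-275 libraries and E13.5. Egln3 is the reverse across age (417 to 502 at E13.5), and Gapdh and Ldha spread widely within the Wnt3a and MS-275 groups.

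Spread within groups was wider for these genes than for genes at large in the adult libraries. Between Wnt3a 1 and Wnt3a 2 the median absolute log2 difference was 1.35 over the 40 genes and 0.43 over all tested genes. Of the 40, 21 were over 2-fold higher in Wnt3a 1, beside 13.2% of all tested genes, and 3 were over 2-fold lower, beside 11.4%. Between MS-275 1 and MS-275 2 the medians were 0.86 and 0.48, with 14 genes over 2-fold higher in MS-275 1, beside 14.2%, and 5 lower, beside 9.06%. The genes high in the first library of each pair included Hk2, Gapdh, Bnip3 and P4ha2. Adult control 1 exceeded adult control 3 by over 2-fold in 10 of the 40 genes, beside 9.59%, and fell below it in 1, beside 14.3%. For adult control 2 these were 13 genes, beside 10.7%, and 1 gene, beside 16.2%. That 1 gene was Arnt2 in both cases. Genes near the floor are among these counts. Aldoc and Eno2 are among the 10 and the 13, and Slc2a3 among the 13, with 5 to 8 reads each over adult control. Of the 3 genes lower in Wnt3a 1, Slc2a3 and Aldoc held 2 and 6 reads over the Wnt3a group. In the MS-275 pair Car9 (5.12 and 0) and Ldhb (0 and 28.4) were counted. The 3 E13.5 libraries and the pair of adult control 1 and 2 showed no such excess (0.068 to 0.347 over the 40 genes and 0.101 to 0.327 over all tested genes). The labels name no difference between the libraries of a group.

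**Figure D5:**
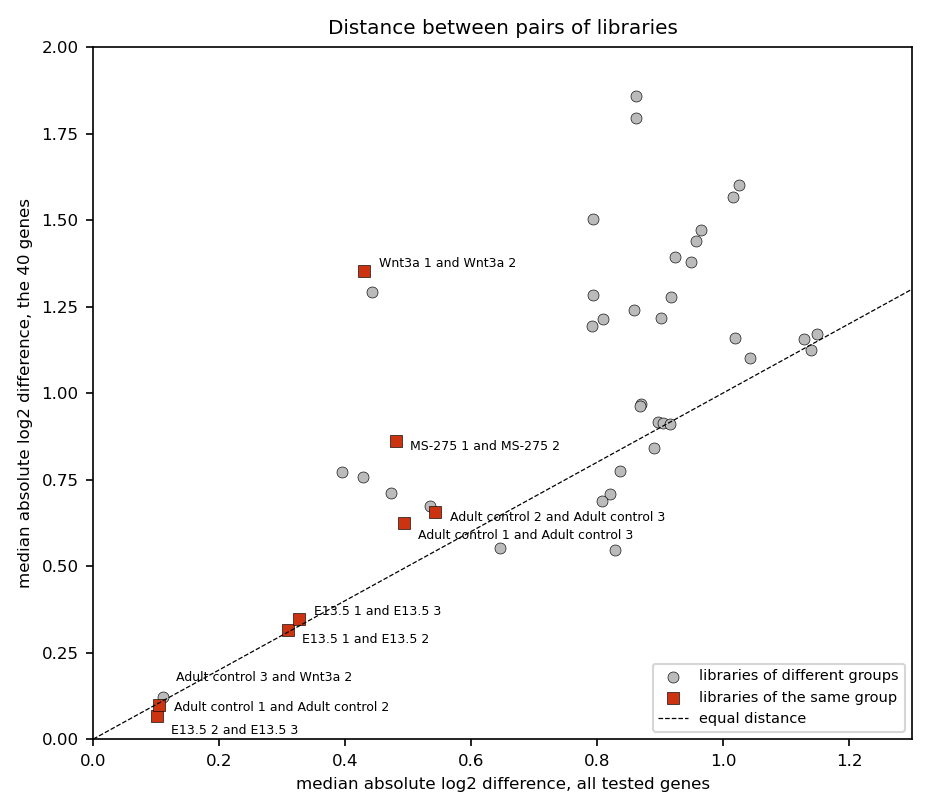
Each point is a pair of libraries, with the median absolute log2 difference over all tested genes on the horizontal axis and over the 40 genes on the vertical axis. Red squares are pairs within a group and the dashed line marks equal distance. The pairs of the 2 Wnt3a libraries (0.43 and 1.35) and of the 2 MS-275 libraries (0.48 and 0.86) lie well above the line, and adult control 3 with Wnt3a 2 (0.111 and 0.121) lies on it near the origin.

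Across all 10 libraries Vhl varied least of the 40 genes, from 598 to 854 (1.43-fold), and Gapdh ran from 24682 to 89083 (3.61-fold). Kdm3a (a histone demethylase, 2.30-fold) and Pfkm (2.27-fold) were also narrow, and these 3 were picked after their values were seen. Arnt2 spanned 168-fold, Hk2 47.1-fold, Ankrd37 40.2-fold and Ndrg1 34.0-fold among genes with reads in every library. Within adult control alone, Hilpda, a lipid droplet protein induced by hypoxia, also picked after its values were seen, spanned 6.11-fold (1024, 1156 and 189) and Arnt2 6.09-fold, while Hk2 spanned 1.24-fold.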

How the data were processed

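The deposited table holds gene counts that the authors divided by DESeq2 size factors, a normalised count signal per gene and library. FastQC, cutadapt, STAR, featureCounts, DESeq2 and mm10 stand in the submitters' processing notes, without versions, and the sources used here do not say if counting took strand into account. Of 21638 lines, 26 carry a date in place of a gene name, hold 0.21% to 0.281% of the counts and were left out. No sample column was left unused.

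The size factors (0.7198 to 1.2585) were recovered from the steps between low values, and 100% of values came out whole within 0.01 of a read, so that no depth had to be assumed. The libraries held 21171509 (Wnt3a 1) to 31810932 (MS-275 1) reads on genes. A floor of 3 reads over a group is 0.952 normalised counts in adult control, 0.867 at E13.5, 1.93 with Wnt3a and 1.44 with MS-275. It covers counting error only.

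Because the deposited values are not raw counts, log2(normalised count + 1) was tested with limma 3.58.1 (R 4.3.3) in 1 model of the 4 groups, over genes at 10 or more in at least 2 libraries, with Benjamini-Hochberg adjustment over all of them. edgeR 4.0.16 and DESeq2 1.42.0 on the recovered reads, other pseudocounts, filters and scalings, the compared groups alone, a replicate block and leaving out each library were alternatives. The limma step was also run on simulated counts, with independent libraries and the same spread for every gene. That simulation did not hold the splits within groups seen here, so that it does not bear on them. P-values rest on the spread within all 4 groups, so that unlike treated libraries can also widen the errors of adult control against E13.5. Coordinates are from GENCODE M21 and promoters from RefSeq. Python 3.11.15, pandas 2.3.3 and matplotlib 3.10.9 were used for the rest.

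The members and lists were chosen with earlier results of these data known. Values in every library are given for the HIF subunits, the oxygen sensors, Gapdh, and for each role and comparison up to 2 called genes with the largest rise and 2 with the largest fall. Further called genes are given by their difference, other genes by range and counts, and of each neighbouring list the 3 genes with the smallest p, except 1 gene that is not reported here.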

Additional observations from a re-analysis of the deposited data

How the results depend on the processing

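In adult control against E13.5 the genes called higher ranged from 7 to 15 and those called lower from 9 to 13 over the alternatives. Without each library in turn, 7 of the 10 higher genes kept their calls, as did the 10 lower ones. Of those lower ones, Aldoc, Eno2 and Ldhb had passed the filter only through E13.5. With the compared groups alone, 15 genes were called higher and 13 lower in adult control against E13.5. With MS-275 these were 5 and 0. The 2 called lower became 4 under quantile normalisation, 1 with a threshold of 1 on the log2 difference and 0 with the replicate block. Without each library in turn the genes called higher with MS-275 ranged from 4 to 7 and those called lower from 0 to 3, the median log2 difference of the 40 genes from -0.24 to 0.60 with MS-275 and from -0.30 to 0.74 with Wnt3a. Car9 turned from -2.67 to 0.49 (adjusted p = 0.395) in adult control against E13.5 under quantile normalisation. Of the single-gene results 764 kept their side of the threshold, 63 fell below it and 33 came past it. The cause of these shifts was not tested.

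Isozyme log2 ratios near the floor moved with the pseudocount. With 10 in place of 1, Hk2 to Hk1 in adult control went to -6.67, Aldoc to Aldoa to -12.42 (MS-275) and -11.45 (adult control), Eno2 to Eno1 to -9.93 (adult control) and -9.55 (MS-275), and Ldhb to Ldha to -10.96 (adult control) and -11.21 (Wnt3a). With 0.5, Aldoc to Aldoa went to -16.74 (MS-275) and Ldhb to Ldha to -15.28 (adult control) and -15.53 (Wnt3a).

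Over all genes, the median log2 difference in adult control against E13.5 moved from -0.20 to 0.12 under quantile normalisation, -0.33 with equal totals and -0.02 in edgeR, and with MS-275 from 0.15 to 0.01 under quantile normalisation. The compared groups alone gave 2191 higher and 1664 lower with MS-275, and 20 and 5 with Wnt3a. In their deviations from group means, same-numbered libraries correlated at 0.07, 0 and 0.02 (E13.5), 0.31 and -0.26 (MS-275) and 0.45 and -0.45 (Wnt3a) with adult control. In a group of 2 libraries these deviations mirror each other, so that the check cannot decide whether replicate numbers pair the treated samples with controls. The replicate block gave 13 and 10 called genes in adult control against E13.5 and 10 and 0 with MS-275. With 2 libraries in each treated group, small differences were not detectable. A term for the library set was not run, because the column names give none.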
